A study of Mus musculus with 24 samples.

Results

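The comparison described here set mouse embryonic fibroblasts (MEFs) 7 days after transduction with the GHMT cocktail against mock-treated fibroblasts of the same day. It used 6 of the 24 RNA-seq libraries of the series, 3 labelled GHMT and 3 labelled Mock, and all genes of the raw count table. Of 47967 genes in that table, 17576 held enough counts to be tested. The fibroblasts came from C57BL/6 embryos of embryonic day 13.5 to 14.5. The letters of GHMT usually stand for Gata4, Hand2, Mef2c and Tbx5. The GHMT cells had been exposed to retroviruses carrying the cocktail and kept in an induction medium. The labels do not say whether mock cells received an empty virus or the same medium, so the factors, the virus and the medium cannot be told apart. GMT, the cocktail without Hand2, at day 7, and GHMT and mock at day 2, were used beside it where stated. The labels do not state whether the 3 libraries of a group are separate cultures. The p-values therefore reflect the spread among libraries, possibly technical. No batch is given. The RNA is from the bulk culture, so the share of cells that took up every factor is not known, and fewer cells of a type and less RNA per cell cannot be told apart.

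Cardiac reprogramming forces transcription factors of the developing heart into a cell of another kind. Gata4, Hand2, Mef2c and Tbx5 bind near genes of the contractile apparatus, of calcium cycling and of electrical coupling, which together let a heart muscle cell beat. A fibroblast instead makes and remodels the extracellular matrix, above all fibrillar collagen, and divides in culture.

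The libraries compared held 31356431 to 37495178 counted reads. GHMT replicate 2 stood further from its group than other libraries did from theirs. Over genes, its chi-square per degree of freedom was 10.5 and 9.82 against replicates 1 and 3, which differed from each other by 2.29. The 37 genes of the mitochondrial genome had 0 counts throughout and were not measured. Levels below are in CPM, read counts scaled to library size, with TMM factors that correct for library composition. Where 3 values are given they are replicates 1, 2 and 3, means are ± SD (n = 3). In a pair of means joined by "against" GHMT comes first and mock second. Differences are log2 fold changes ± SE, positive where GHMT was higher. The SE is the absolute log2 fold change divided by the square root of edgeR's F statistic. For genes with few counts in a group it can lie far below the counting error. Gene positions are GENCODE M21 on GRCm38, the build the submitters' processing notes name. A gene was called where edgeR's quasi-likelihood test gave an adjusted p under 0.05.

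To show the sequence in front of genes that rose, 4 promoters are printed below. They were chosen because each holds a match to a motif of one factor family of the cocktail, so the matches are no result. They are RefSeq promoters on GRCm38.p6, from 250 bases before to 50 bases after the annotated start, written 5′ to 3′ on the gene's strand. Capitals mark exact matches, on either strand, to 4 motifs. The GATA motif searched was AGATAA. The MEF2 motif was TAAAAATA. The T-box motif was AGGTGTG. The motif of Hand2's class, an E-box, was CATCTG. Tnnt2 (chr1:135836084-135836383, plus strand, the first of 2 start sites) holds a GATA match, Casq2 (chr3:102086165-102086464, plus strand) a MEF2 match, Nppa (chr4:148000472-148000771, plus strand) a T-box match and Tnnc1 (chr14:31208062-31208361, plus strand) 2 E-box matches.
Tnnt2: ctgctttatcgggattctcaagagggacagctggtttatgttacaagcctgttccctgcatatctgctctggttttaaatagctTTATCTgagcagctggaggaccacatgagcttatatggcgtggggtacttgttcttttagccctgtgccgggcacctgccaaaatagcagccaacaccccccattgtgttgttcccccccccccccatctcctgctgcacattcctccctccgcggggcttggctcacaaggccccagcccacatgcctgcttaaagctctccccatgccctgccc
Casq2: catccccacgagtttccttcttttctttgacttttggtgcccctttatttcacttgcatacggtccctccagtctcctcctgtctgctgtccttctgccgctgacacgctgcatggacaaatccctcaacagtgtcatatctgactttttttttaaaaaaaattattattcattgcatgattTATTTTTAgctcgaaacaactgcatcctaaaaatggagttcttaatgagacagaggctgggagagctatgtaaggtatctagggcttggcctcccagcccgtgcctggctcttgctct
Nppa: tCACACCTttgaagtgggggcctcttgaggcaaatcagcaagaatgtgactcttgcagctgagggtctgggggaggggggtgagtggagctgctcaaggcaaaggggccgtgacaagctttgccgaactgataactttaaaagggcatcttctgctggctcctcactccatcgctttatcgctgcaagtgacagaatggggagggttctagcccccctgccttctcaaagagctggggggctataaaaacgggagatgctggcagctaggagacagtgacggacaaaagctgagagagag
Tnnc1: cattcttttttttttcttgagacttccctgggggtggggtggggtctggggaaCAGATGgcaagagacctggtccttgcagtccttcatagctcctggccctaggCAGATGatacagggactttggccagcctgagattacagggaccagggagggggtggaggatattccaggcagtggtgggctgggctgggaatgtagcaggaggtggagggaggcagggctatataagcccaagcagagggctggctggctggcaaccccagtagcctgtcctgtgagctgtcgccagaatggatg

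Matches to such short motifs were common and describe letters only, not binding. The promoter table matched 12014 of the genes tested. Among start sites of genes called higher by more than 2-fold, 10.3% held the GATA motif, 2.24% the MEF2 motif, 6.01% the T-box motif and 14.6% the E-box. Among those called lower by more than 2-fold the shares were 6.6%, 1.39%, 3.75% and 15.1%, and among all genes tested 6.83%, 1.38%, 4.57% and 12.2%. Over every start site in the table, tested or not, they were 11.2%, 2.72%, 5.84% and 17.2%. The differences between these shares were not tested.

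Most genes tested differed between GHMT and mock. Of 17576 genes, 72% were called, 6387 higher (36.3%) and 6261 lower (35.6%). A change of more than 2-fold, tested against that threshold with edgeR's glmTreat, was called for 2136 genes higher (12.2%) and 1859 lower (10.6%). Without GHMT replicate 2, 6150 genes were called higher and 6065 lower. The median log2 fold change over all genes tested was 0.0023, against which the list medians below should be read. In 74.6% of genes tested the 3 GHMT libraries did not overlap the 3 mock libraries (6635 higher and 6469 lower). Since most genes were called, a called gene alone says little, and the size of its change is given with it. The list counts below should likewise be read against the 36.3% called higher and 35.6% called lower over all genes tested.

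**Figure D1:**
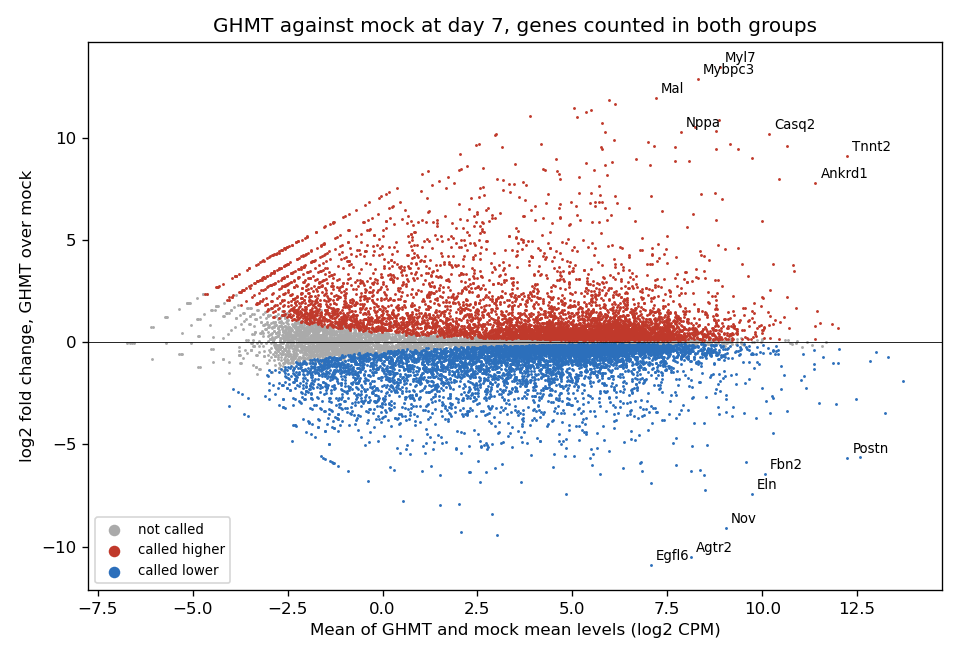
Log2 fold change of GHMT over mock at day 7 (vertical axis) against the mean level over both groups in log2 CPM (horizontal axis), 1 point per tested gene counted in both groups, coloured by edgeR call. Heart muscle genes lie at the top, with Myl7 at a log2 fold change of 13.43. Of the labelled genes Egfl6 (log2 -10.91) and Agtr2 (log2 -10.51) lie lowest, and matrix genes such as Eln (log2 -7.43) and Postn (log2 -5.65) lie above them on the lower side.

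The factors check the labels. Gata4 stood at 1094, 1241 and 1091 CPM in GHMT and 1.51, 1.33 and 1.36 CPM in mock, and Tbx5 at 2767, 2795 and 2677 CPM in GHMT and 11.2, 11.5 and 10.3 CPM in mock. Mef2c stood at 2032, 2039 and 1977 CPM in GHMT and 31.1, 35.6 and 32.6 CPM in mock, and Hand2 at 979.9, 1019 and 935 CPM in GHMT and 7.33, 8.05 and 7.35 CPM in mock. All 4 factors were far above mock in every GHMT library, and their counts can hold viral and endogenous transcripts alike. Akt1, which belongs to another cocktail of the series, was at 379.9, 383 and 382 CPM in GHMT and 401, 395 and 359.5 CPM in mock and was not called (log2 -0.01 ± 0.04, edgeR, adjusted p = 0.78).

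Thick filament genes, which build the myosin motor of the sarcomere, rose most of the sarcomere lists by median. Of the list, 13 of 15 tested members were called higher, 0 lower and 2 were not called. Its median log2 fold change was 8.85, or 6.77 with Mybphl, at 0 counts in mock, placed at its bound. Myl7, the atrial regulatory light chain (ENSMUSG00000020469, chromosome 11, 5896637-5898782), stood at 946, 991 and 883 CPM in GHMT and 0.0591, 0.0905 and 0.0951 CPM in mock (log2 13.43 ± 0.17, edgeR, adjusted p = 3.45e-27). Mybpc3, cardiac myosin-binding protein C (ENSMUSG00000002100, chromosome 2, 91118144-91136516), stood at 629.6, 628 and 636 CPM in GHMT and 0, 0.151 and 0.0951 CPM in mock (log2 12.86 ± 0.13, edgeR, adjusted p = 2.95e-29). Myom2, an M-band protein that ties thick filaments together, stood at 949.5, 939 and 913 CPM in GHMT and 0.591, 0.483 and 0.444 CPM in mock (log2 10.84 ± 0.07, edgeR, adjusted p = 3.17e-32). All 3 were below 1 CPM in each mock library. Ttn, the giant spring that spans the half-sarcomere, rose to 541 ± 112 against 1.17 ± 0.221 CPM (log2 8.85 ± 0.36, edgeR, adjusted p = 3.27e-17), and Myl4, the atrial essential light chain, to 1686 ± 78.1 against 3.26 ± 0.314 CPM (log2 9.01 ± 0.14, edgeR, adjusted p = 1.31e-25). Mybphl, at 10.8, 9.71 and 9.41 CPM in GHMT and 0, 0 and 0 CPM in mock, was at least 109-fold higher (edgeR, adjusted p = 2.61e-21). Myh6, the alpha myosin heavy chain, stood at 887 ± 81.9 against 0.681 ± 0.323 CPM, and Myh7, the beta chain, at 2.52 ± 0.108 against 0.189 ± 0.169 CPM, although reads shared between this near-identical pair make both levels uncertain. The ventricular light chain Myl2 rose only to 0.339 ± 0.0645 against 0.0821 ± 0.0387 CPM (log2 2.02 ± 0.58), and Myl3, the ventricular essential light chain, was not called at 0.108 ± 0.0236 against 0.101 ± 0.0966 CPM. Myh7b was not called either, at 0.24 ± 0.109 against 0.368 ± 0.153 CPM.

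Thin filament genes, which carry the calcium switch of contraction, rose with it. Of the list, 14 of 16 tested members were called higher, 1 lower and 1 was not called. The list median was 4.83. Tnnt2, cardiac troponin T (ENSMUSG00000026414, chromosome 1, 135836354-135852260), whose promoter is printed above, stood at 9487, 10096 and 9093 CPM in GHMT and 17.6, 19.1 and 16.2 CPM in mock (log2 9.08 ± 0.11, edgeR, adjusted p = 1.12e-27). Tnnc1, the troponin that binds calcium (ENSMUSG00000091898, chromosome 14, 31208312-31211729), stood at 1311, 1361 and 1235 CPM in GHMT and 2.07, 1.9 and 1.59 CPM in mock (log2 9.45 ± 0.16, edgeR, adjusted p = 8.66e-25), and Actc1, cardiac alpha-actin, at 901, 889 and 838 CPM in GHMT and 1.36, 1.39 and 0.983 CPM in mock (log2 9.45 ± 0.11, edgeR, adjusted p = 7.81e-28). Every GHMT library lay far above every mock library for each of these. The slow troponin I gene Tnni1, the form of the fetal heart, reached 416 ± 17.1 against 0.881 ± 0.335 CPM (log2 8.88 ± 0.14), and the adult cardiac form Tnni3 reached 108 ± 2.5 against 0.925 ± 0.116 CPM (log2 6.87 ± 0.14). Among tropomyosins, which lie along the actin filament, Tpm1 rose from a high base, at 4142 ± 107 against 1428 ± 42.7 CPM (log2 1.54 ± 0.05), and Tpm2 was not called, at 431 ± 34.5 against 438 ± 21.9 CPM. The skeletal alpha-actin Acta1 was the one member that fell, at 17.4 ± 3.23 against 22 ± 1.2 CPM (log2 -0.35 ± 0.12), a call lost without GHMT replicate 1 (edgeR, adjusted p = 0.111).

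Z-disc and costamere genes anchor the filaments and tie them to the membrane. Of the list, 20 of 22 tested members were called higher, 2 lower and 0 were not called. The list median was 3.35. Ankrd1, a stretch-responsive ankyrin repeat protein (ENSMUSG00000024803, chromosome 19, 36111961-36120099), stood at 5336, 5610.5 and 5198 CPM in GHMT and 24.3, 23.4 and 25.5 CPM in mock (log2 7.79 ± 0.10, edgeR, adjusted p = 5.98e-27), and Ldb3, a Z-disc scaffold, at 891, 830.3 and 859 CPM in GHMT and 5.79, 5.76 and 4.79 CPM in mock (log2 7.30 ± 0.07, edgeR, adjusted p = 2.12e-29). Actn2, which encodes an alpha-actinin, reached 119 ± 6.18 against 0.405 ± 0.101 CPM (log2 8.19 ± 0.09) and Des, the muscle intermediate filament, 1311 ± 34 against 93.2 ± 5.3 CPM (log2 3.81 ± 0.07). Csrp3, the muscle LIM protein, had 1823 counts over the GHMT libraries and 2 over the mock libraries, a ratio of 872 (exact 95% counting interval 241 to 7209). Tcap, the titin cap, stayed at 11.5 ± 1.08 against 0.0819 ± 0.0487 CPM, although it rose (log2 7.09 ± 0.25). Sgcd, a sarcoglycan, fell (log2 -1.79 ± 0.12) while its relative Sgca (log2 5.68 ± 0.17) rose. Synpo2, an actin-bundling protein, also fell, to 10.7 ± 1.41 against 15.1 ± 0.587 CPM (log2 -0.50 ± 0.09).

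**Figure D2:**
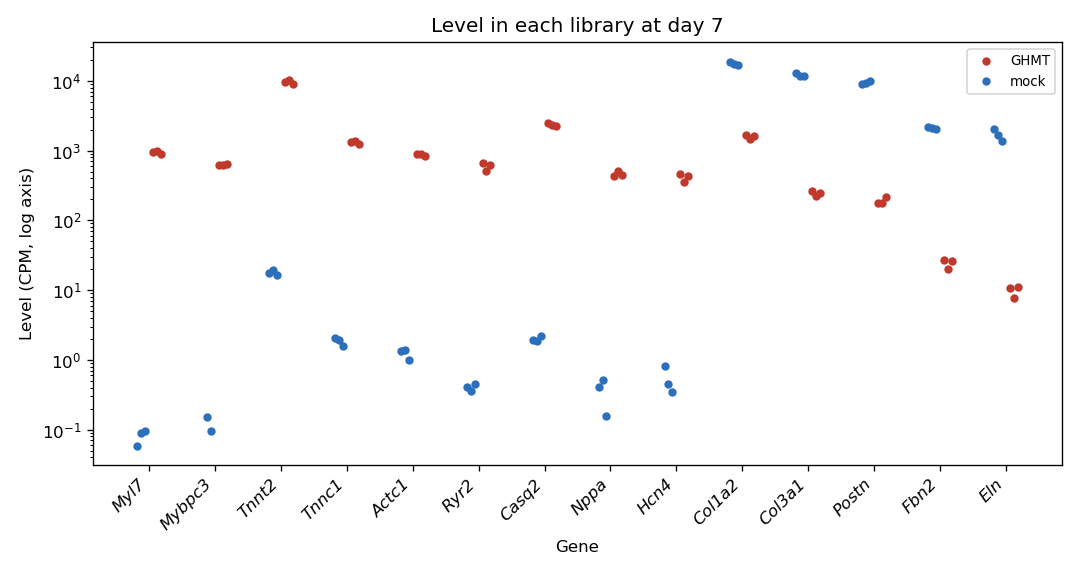
Level in CPM on a log axis of 14 genes in each of the 6 libraries, with GHMT and mock as separate colours and 1 point per library. The heart muscle genes on the left are higher in all 3 GHMT libraries and the matrix genes on the right are lower. A mock library at 0 for Mybpc3 is not drawn.

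Calcium leaves and returns to an internal store with each heartbeat. Of the list, 19 of 26 tested members were called higher, 3 lower and 4 were not called. The list median was 1.08. Ryr2, the release channel of the sarcoplasmic reticulum (ENSMUSG00000021313, chromosome 13, 11553102-12106945), stood at 669.6, 505 and 627 CPM in GHMT and 0.414, 0.362 and 0.444 CPM in mock (log2 10.52 ± 0.25, edgeR, adjusted p = 5.44e-22), with GHMT replicate 2 the lowest of its group. Casq2, the calcium store protein (ENSMUSG00000027861, chromosome 3, 102086415-102146514), stood at 2441, 2291 and 2257 CPM in GHMT and 1.92, 1.87 and 2.19 CPM in mock (log2 10.19 ± 0.08, edgeR, adjusted p = 1.10e-31). Sln, the small inhibitor of the calcium pump in atria, had 12860 counts over the GHMT libraries and 3 over the mock libraries, a ratio of 4103 (exact 95% counting interval 1404 to 19897). Trdn, which links store and channel, rose to 27.4 ± 1.49 against 0.132 ± 0.0169 CPM (log2 7.66 ± 0.12), and Pln, the pump inhibitor of ventricles, to 13 ± 0.746 against 0.141 ± 0.042 CPM (log2 6.48 ± 0.17). The pump Atp2a2 rose from 383 ± 2.25 CPM to 1683 ± 89.5 CPM (log2 2.14 ± 0.05), the exchanger Slc8a1 to 146 ± 17.2 against 21.6 ± 1.5 CPM (log2 2.76 ± 0.14), and the junctional protein Jph2 to 324 ± 7.84 against 58.5 ± 1.05 CPM (log2 2.47 ± 0.04). Cacna1c, the L-type calcium channel of heart muscle, was less than 2-fold higher (log2 0.93 ± 0.12). Cacna1g, a T-type channel, went the other way, at 13.9, 14.4 and 16.8 CPM in GHMT and 198, 191 and 201 CPM in mock (log2 -3.71 ± 0.08, edgeR, adjusted p = 6.33e-23), with no overlap.

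Ion channels set the rhythm of the heart. Of potassium and sodium channel genes, 16 of 23 tested members were called higher, 6 lower and 1 was not called. Kcnj5, a subunit of the acetylcholine-gated channel of atria, stood at 142, 133 and 142 CPM in GHMT and 0.0887, 0.0302 and 0 CPM in mock (log2 11.62 ± 0.15, edgeR, adjusted p = 1.56e-25), while its partner Kcnj3 had 229 counts over the GHMT libraries and 2 over the mock libraries, a ratio of 110.0 (exact 95% counting interval 30 to 910.0). Kcnh2, which carries a repolarising current, reached 37.4 ± 1.48 against 2.11 ± 0.114 CPM (log2 4.15 ± 0.09). Kcnj2, the inward rectifier that holds the resting potential of ventricular cells, fell to 2.88 ± 0.85 against 11.2 ± 4.91 CPM (log2 -1.98 ± 0.25), and Kcnd2 to 2.05 ± 0.13 against 10.8 ± 0.981 CPM (log2 -2.41 ± 0.12). Of pacemaker and conduction genes, 9 of 17 tested members were called higher, 7 lower and 1 was not called. Hcn4, the main pacemaker channel (ENSMUSG00000032338, chromosome 9, 58823412-58863175), stood at 462, 354 and 425 CPM in GHMT and 0.827, 0.452 and 0.349 CPM in mock (log2 9.55 ± 0.22, edgeR, adjusted p = 4.41e-22). Gja5, a connexin of atria and the conduction system, rose to 118 ± 3.97 against 1.91 ± 0.0406 CPM (log2 5.95 ± 0.10) and Tbx2 to 59.8 ± 1.67 against 5.43 ± 0.303 CPM (log2 3.46 ± 0.06). Among regulators of the sinus node, Tbx3 was not called at 18.3 ± 0.608 against 17.2 ± 0.504 CPM, Shox2 fell to 27.4 ± 1.08 against 54.7 ± 2.88 CPM (log2 -0.99 ± 0.05) and Isl1 to 0.378 ± 0.0629 against 0.913 ± 0.0954 CPM (log2 -1.26 ± 0.32).

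Atrial and ventricular genes were read side by side, and the difference between the lists was not tested. Of the atrial and natriuretic list, 15 of 20 tested members were called higher, 4 lower and 1 was not called, with a median of 4.18, and of the ventricular list 7 of 12 tested members were called higher, 4 lower and 1 was not called, with a median of 1.45. Nppa, the atrial natriuretic peptide (ENSMUSG00000041616, chromosome 4, 148000722-148002079), stood at 437, 503 and 442 CPM in GHMT and 0.414, 0.513 and 0.159 CPM in mock (log2 10.29 ± 0.16, edgeR, adjusted p = 1.70e-25). Corin, the protease that activates it, reached 117 ± 7.65 against 0.281 ± 0.114 CPM (log2 8.66 ± 0.14), and Nppb, the B-type peptide, 144 ± 11.9 against 1.27 ± 0.215 CPM (log2 6.82 ± 0.13). Pam, the enzyme that amidates peptides in atrial granules, reached 2308 ± 77.8 against 163 ± 5.54 CPM (log2 3.83 ± 0.05). Nr2f2, the regulator of atrial identity, was lower at 11.3 ± 0.426 against 31.8 ± 1.75 CPM (log2 -1.49 ± 0.06), as was the clearance receptor Npr3 at 6.59 ± 0.40 against 53.5 ± 3.49 CPM (log2 -3.03 ± 0.07). Among ventricular genes the coregulator Cited1 rose to 49.5 ± 1.04 against 0.163 ± 0.0392 CPM (log2 8.22 ± 0.21), whereas Irx5 (log2 -1.43 ± 0.08) and Hey2 (log2 -0.67 ± 0.12) fell.

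Other cardiac regulators moved in both directions, as genes tested did at large. Of the list, 19 of 40 tested members were called higher, 15 lower and 6 were not called, with a median of 0.147. Over all genes tested, 36.3% were called higher and 35.6% lower. Tbx20 (ENSMUSG00000031965, chromosome 9, 24718138-24774303), a T-box factor of heart muscle, stood at 288, 239.6 and 268 CPM in GHMT and 0.65, 0.603 and 0.697 CPM in mock (log2 8.67 ± 0.11, edgeR, adjusted p = 5.88e-27). Myocd, a coactivator of serum response factor, stood at 89, 73.3 and 85.3 CPM in GHMT and 2.87, 3.32 and 3.55 CPM in mock (log2 4.67 ± 0.15, edgeR, adjusted p = 4.79e-19), and Smyd1, a muscle methyltransferase needed for myofibril assembly, at 24.1, 22 and 23.7 CPM in GHMT and 0.443, 0.452 and 0.729 CPM in mock (log2 5.42 ± 0.13, edgeR, adjusted p = 1.36e-21). Nfatc1 (log2 2.54 ± 0.06), Zfpm1 (log2 2.66 ± 0.05) and Heyl (log2 2.78 ± 0.11) also rose. Gata6 moved little, at 19 ± 0.715 against 15.8 ± 0.871 CPM (log2 0.26 ± 0.06), as did Mef2a (log2 0.27 ± 0.05) and Mef2d (log2 0.21 ± 0.06), and Tead1 was not called at 512 ± 51 against 501 ± 7.21 CPM. Zfpm2, the partner of Gata4 in the heart, fell to 6.19 ± 0.305 against 26.4 ± 1.01 CPM (log2 -2.10 ± 0.09). Nkx2-5, a core factor of heart muscle, was too low to test, at 0.0771 ± 0.010 against 0.0197 ± 0.0341 CPM.

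Desmosomes and gap junctions couple heart muscle cells. Of the list, 16 of 19 tested members were called higher, 3 lower and 0 were not called. Dsp, desmoplakin, stood at 3494, 2815 and 3302 CPM in GHMT and 3.81, 4.52 and 4.22 CPM in mock (log2 9.58 ± 0.14, edgeR, adjusted p = 2.96e-26). Pkp2, plakophilin, rose to 174 ± 4.07 against 16.5 ± 0.884 CPM (log2 3.39 ± 0.07), Jup, plakoglobin, to 853 ± 5.9 against 126 ± 9.88 CPM (log2 2.75 ± 0.05), and Dsc2, a desmosomal cadherin, to 50 ± 4.62 against 0.747 ± 0.20 CPM (log2 6.05 ± 0.12). N-cadherin, Cdh2, rose from 154 ± 1.19 CPM to 603 ± 23.8 CPM (log2 1.97 ± 0.05) and connexin 43, Gja1, to 811 ± 35 against 291 ± 3.79 CPM (log2 1.48 ± 0.04). Cdh11, the cadherin of mesenchymal cells, fell, at 128, 123 and 136 CPM in GHMT and 1699.7, 1680 and 1757 CPM in mock (log2 -3.73 ± 0.06, edgeR, adjusted p = 5.70e-26). Of genes of adrenergic and cyclic AMP signalling, 10 of 21 tested members were called higher, 9 lower and 2 were not called. Over all genes tested the shares were 36.3% higher and 35.6% lower. Popdc2, a cyclic AMP binding membrane protein, rose to 268 ± 3.68 against 1.88 ± 0.178 CPM (log2 7.15 ± 0.08) and the anchoring protein Akap6 to 88.7 ± 7.94 against 3.08 ± 0.223 CPM (log2 4.85 ± 0.10). The beta1 receptor Adrb1, the main one of heart muscle, was not called at 4.62 ± 0.836 against 4.38 ± 0.481 CPM, and the phosphodiesterases Pde3b (log2 -2.75 ± 0.06) and Pde4b (log2 -2.19 ± 0.07) fell.

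Skeletal muscle genes were read as a check on muscle type. Of that list, 13 of 22 tested members were called higher, 2 lower and 7 were not called, and 11 were too low to test. Among those not tested were Myod1, at 0.0552 ± 0.0478 against 0.0396 ± 0.0451 CPM, and Myf5, at 0 counts in all 6 libraries, both master regulators of skeletal muscle. Myog, which acts after them, was not called at 0.181 ± 0.128 against 0.222 ± 0.103 CPM. Mb, myoglobin, which heart muscle also makes, stood at 287, 296 and 272 CPM in GHMT and 0.414, 0.332 and 0.349 CPM in mock (log2 9.59 ± 0.16, edgeR, adjusted p = 5.32e-25), and Tnnt3, fast troponin T, rose to 25.3 ± 1.47 against 0.844 ± 0.148 CPM (log2 4.90 ± 0.15). Myh3, the embryonic myosin heavy chain, fell to 0.603 ± 0.346 against 1.32 ± 0.231 CPM (log2 -1.17 ± 0.35). By more than 2-fold, 10 members of the skeletal muscle list were called higher and 1 lower. Summed over that list, levels were 2415.9, 2434.5 and 2346.3 CPM in GHMT and 51.3, 56 and 51.3 CPM in mock. Of smooth muscle and myofibroblast genes, 10 of 24 tested members were called higher, 9 lower and 5 were not called, with a median of -0.01. Acta2, smooth muscle alpha-actin, was high in both groups and not called, at 3256, 3398 and 3223 CPM in GHMT and 3438, 3348 and 2996 CPM in mock. Myh11, smooth muscle myosin, rose from 142 ± 6.29 CPM to 317 ± 22.1 CPM (log2 1.16 ± 0.07), while Actg2 (log2 -1.08 ± 0.06), Mylk (log2 -0.94 ± 0.06) and Cnn1 (log2 -0.91 ± 0.07) fell.

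Energy genes rose in numbers but mostly by small amounts. Of nuclear respiratory chain and ATP synthase genes, 44 of 48 tested members were called higher, 1 lower and 3 were not called, with a median of 0.47 and only 2 called higher by more than 2-fold. Cox7a2 was at 126, 148 and 119 CPM in GHMT and 65.4, 65.8 and 62 CPM in mock (log2 1.03 ± 0.10, edgeR, adjusted p = 5.70e-10), and Cox7a1, the muscle form of that subunit, at 3.1 ± 0.263 against 0.58 ± 0.142 CPM (log2 2.41 ± 0.20). Cox4i2 was the member that fell, to 0.39 ± 0.179 against 1.21 ± 0.20 CPM (log2 -1.67 ± 0.30). Of the citric acid cycle list, 26 of 31 tested members were called higher, 4 lower and 1 was not called. The coactivators Ppargc1a (log2 1.97 ± 0.17) and Ppargc1b (log2 2.46 ± 0.16), which drive mitochondrial gene expression, rose from 1.36 ± 0.186 CPM and 0.74 ± 0.169 CPM to 5.37 ± 0.383 CPM and 4.1 ± 0.539 CPM. Of fatty acid genes, 24 of 40 tested members were called higher, 10 lower and 6 were not called. Acaa2, a thiolase of beta oxidation, reached 391 ± 23.4 against 39.1 ± 2.85 CPM (log2 3.32 ± 0.08) and Fabp3, the fatty acid binding protein of heart, 36 ± 2.22 against 4.06 ± 0.143 CPM (log2 3.15 ± 0.08), while Lpl fell to 61 ± 1.89 against 362 ± 17.6 CPM (log2 -2.57 ± 0.08). Of glycolysis and glycogen genes, 29 of 38 tested members were called higher, 3 lower and 6 were not called, with a median of 0.62. The muscle enzymes Pgam2, at 124, 137 and 122 CPM in GHMT and 1.68, 1.84 and 1.62 CPM in mock (log2 6.22 ± 0.11, edgeR, adjusted p = 2.17e-24), and Pygm, at 39.8, 36.5 and 33.9 CPM in GHMT and 0.473, 0.603 and 0.571 CPM in mock (log2 6.06 ± 0.11, edgeR, adjusted p = 5.83e-24), rose most in that list. Slc2a1, the basal glucose carrier, rose to 216 ± 7.25 against 54 ± 2.39 CPM (log2 2.00 ± 0.06), and Slc2a4, the insulin-regulated one, was not called at 1.91 ± 0.16 against 1.59 ± 0.189 CPM. Ckb, brain creatine kinase, rose to 461 ± 51.6 against 60.7 ± 5.28 CPM (log2 2.92 ± 0.10), whereas the muscle form Ckm was too low to test at 0.0203 ± 0.0177 against 0 ± 0 CPM.

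Chaperones fold and protect proteins under load. Of the list of small heat shock proteins and chaperones, 13 of 21 tested members were called higher, 7 lower and 1 was not called. Hspb7, the cardiovascular small heat shock protein, rose to 572 ± 9.4 against 7.56 ± 0.523 CPM (log2 6.24 ± 0.06), Unc45b, the myosin chaperone, stood at 70.2, 71.2 and 65.7 CPM in GHMT and 0.975, 1.03 and 0.729 CPM in mock (log2 6.23 ± 0.09, edgeR, adjusted p = 1.51e-26), and Cryab rose to 712 ± 43.7 against 150.1 ± 7.29 CPM (log2 2.25 ± 0.07). The endoplasmic reticulum chaperone genes Hsp90b1 (log2 -0.54 ± 0.05), Pdia6 (log2 -0.49 ± 0.07) and Hspa5 (log2 -0.28 ± 0.05) fell. The muscle ubiquitin ligase gene Trim63 reached 71.5 ± 1.23 against 0.261 ± 0.158 CPM (log2 8.06 ± 0.14), its relative Trim55 had 8513 counts over the GHMT libraries and 3 over the mock libraries, a ratio of 2716 (exact 95% counting interval 929 to 13172), and Trim54, at 13, 14.5 and 13.3 CPM in GHMT and 0, 0 and 0 CPM in mock, was at least 149-fold higher (edgeR, adjusted p = 2.71e-18).

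Fibroblast identity genes fell as a group. Of identity regulators and surface genes, 4 of 37 tested members were called higher, 30 lower and 3 were not called, with a median of -1.92. Prrx1, a homeobox factor of limb and skin mesenchyme, stood at 135, 126 and 137 CPM in GHMT and 729, 718 and 759 CPM in mock (log2 -2.47 ± 0.05, edgeR, adjusted p = 1.95e-23), and Osr1 at 3.5, 3.4 and 3.54 CPM in GHMT and 62.8, 56.6 and 52.2 CPM in mock (log2 -4.04 ± 0.08, edgeR, adjusted p = 2.00e-23). Twist1, a mesenchymal regulator, fell to 19.4 ± 1.27 against 101 ± 4.05 CPM (log2 -2.37 ± 0.06), Meox1 to 0.19 ± 0.0945 against 8.21 ± 0.936 CPM (log2 -5.45 ± 0.23) and Gli2, a hedgehog effector, to 2.89 ± 0.617 against 57 ± 4.2 CPM (log2 -4.30 ± 0.12). The surface proteins Thy1 (log2 -2.04 ± 0.06), Pdgfra (log2 -1.53 ± 0.06) and Dpp4 (log2 -5.84 ± 0.20) fell too. Zeb1 was not called at 126 ± 4.17 against 118 ± 1.67 CPM. It was called higher with library totals in place of TMM (edgeR, adjusted p = 0.0293) and with only the compared libraries (edgeR, adjusted p = 0.044). Vim, the mesenchymal intermediate filament, rose to 5079 ± 268 against 3153 ± 106 CPM (log2 0.69 ± 0.05). Summed over the 16 fibroblast markers, of which 14 fell and 2 rose, levels were 14411, 13868 and 13993 CPM in GHMT and 71918, 67523 and 66368 CPM in mock. In mock at day 2 the sum was 35015, 38260 and 37889 CPM, below the mock level of day 7.

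Collagen genes took 2.56%, 2.34% and 2.5% of counts in the GHMT libraries against 8.37%, 8.05% and 7.92% in mock. Of fibrillar collagens and their processing enzymes, 7 of 33 tested members were called higher, 21 lower and 5 were not called. Col1a2 stood at 1668, 1486 and 1633 CPM in GHMT and 18820, 17312 and 16798 CPM in mock (log2 -3.47 ± 0.06, edgeR, adjusted p = 1.15e-24) and Col3a1, the collagen of elastic tissues (ENSMUSG00000026043, chromosome 1, 45311538-45349706), at 259, 223 and 249 CPM in GHMT and 12760, 11678 and 11595 CPM in mock (log2 -5.62 ± 0.08, edgeR, adjusted p = 1.09e-26). Col1a1 fell less, to 5714 ± 312 against 21121 ± 1528 CPM (log2 -1.89 ± 0.06). Lox, which crosslinks collagen and elastin, fell to 635 ± 34.9 against 5089.7 ± 117 CPM (log2 -3.00 ± 0.06), and its relative Loxl2 rose to 1656 ± 49.6 against 603 ± 18.7 CPM (log2 1.46 ± 0.05). Of network and other collagens, 8 of 21 tested members were called higher, 13 lower and 0 were not called. Among chains of collagen IV, the sheet of basement membranes, Col4a1 rose at 4737 ± 239.9 against 2595 ± 66 CPM (log2 0.87 ± 0.05), Col4a2 at 3402 ± 128 against 1952 ± 63 CPM (log2 0.80 ± 0.05) and Col4a5 at 756 ± 54.2 against 346 ± 3.93 CPM (log2 1.13 ± 0.06). Among chains of collagen VI, Col6a1 fell at 330.0 ± 23.1 against 2167 ± 110.3 CPM (log2 -2.72 ± 0.06) and Col6a3 at 491 ± 63.9 against 2394 ± 54.1 CPM (log2 -2.29 ± 0.12). Col22a1, a collagen of muscle-tendon junctions, stood at 151, 122 and 141 CPM in GHMT and 1.09, 0.995 and 0.793 CPM in mock (log2 7.16 ± 0.10, edgeR, adjusted p = 1.15e-26).

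Elastic fibre genes and small proteoglycans had the lowest median of the matrix lists. Of these, 5 of 32 tested members were called higher, 26 lower and 1 was not called, with a median of -2.86. Eln, elastin (ENSMUSG00000029675, chromosome 5, 134702593-134747323), stood at 10.8, 7.67 and 11.1 CPM in GHMT and 2013, 1677 and 1373 CPM in mock (log2 -7.43 ± 0.21, edgeR, adjusted p = 3.21e-20). Fbn2, a fibrillin of embryonic microfibrils, stood at 27.3, 20 and 25.8 CPM in GHMT and 2191, 2116 and 2059.8 CPM in mock (log2 -6.45 ± 0.16, edgeR, adjusted p = 1.56e-21), and Bgn, biglycan, fell to 845 ± 53.5 against 6978 ± 278 CPM (log2 -3.05 ± 0.07). Lum (log2 -3.52 ± 0.12), Aspn (log2 -3.64 ± 0.10) and Ogn (log2 -6.52 ± 0.11), leucine-rich proteoglycans, fell as well. Efemp1 rose against the list, to 683 ± 19.1 against 142 ± 7.05 CPM (log2 2.26 ± 0.05). Of matricellular and adhesive matrix genes, 13 of 35 tested members were called higher, 20 lower and 2 were not called. Postn, periostin (ENSMUSG00000027750, chromosome 3, 54361109-54391037), stood at 176, 177 and 215 CPM in GHMT and 9071, 9360.4 and 10008 CPM in mock (log2 -5.65 ± 0.10, edgeR, adjusted p = 2.54e-24), and Nov, a CCN protein, at 1.85, 1.93 and 2.03 CPM in GHMT and 1120.3, 1027 and 1027 CPM in mock (log2 -9.09 ± 0.14, edgeR, adjusted p = 5.70e-26). Thbs4, a thrombospondin of heart and tendon, rose, at 702, 611 and 680.0 CPM in GHMT and 5.35, 4.1 and 3.84 CPM in mock (log2 7.22 ± 0.10, edgeR, adjusted p = 1.15e-26), and Nid2, a basement membrane linker, reached 3338 ± 166 against 301 ± 14.9 CPM (log2 3.47 ± 0.08). Ctgf and Cyr61, targets of YAP, rose to 891 ± 47.2 against 312 ± 8.58 CPM (log2 1.51 ± 0.08) and 636 ± 16.8 against 363 ± 33.2 CPM (log2 0.81 ± 0.06). Of matrix proteases and inhibitors, 7 of 29 tested members were called higher, 21 lower and 1 was not called, with Mmp2 at 74.4 ± 2.65 against 853 ± 23 CPM (log2 -3.52 ± 0.06), Mmp3 at 0.629 ± 0.0678 against 44.4 ± 4.76 CPM (log2 -6.13 ± 0.16) and, rising, Mmp15 at 352 ± 2.93 against 9.5 ± 0.524 CPM (log2 5.21 ± 0.07). Of integrins and focal adhesion genes, 13 of 25 tested members were called higher, 6 lower and 6 were not called. The laminin receptor subunits Itga6 (log2 4.27 ± 0.07) and Itga7 (log2 2.18 ± 0.06) rose, and the collagen receptor subunit Itga11 fell (log2 -2.88 ± 0.10).

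**Figure D3:**
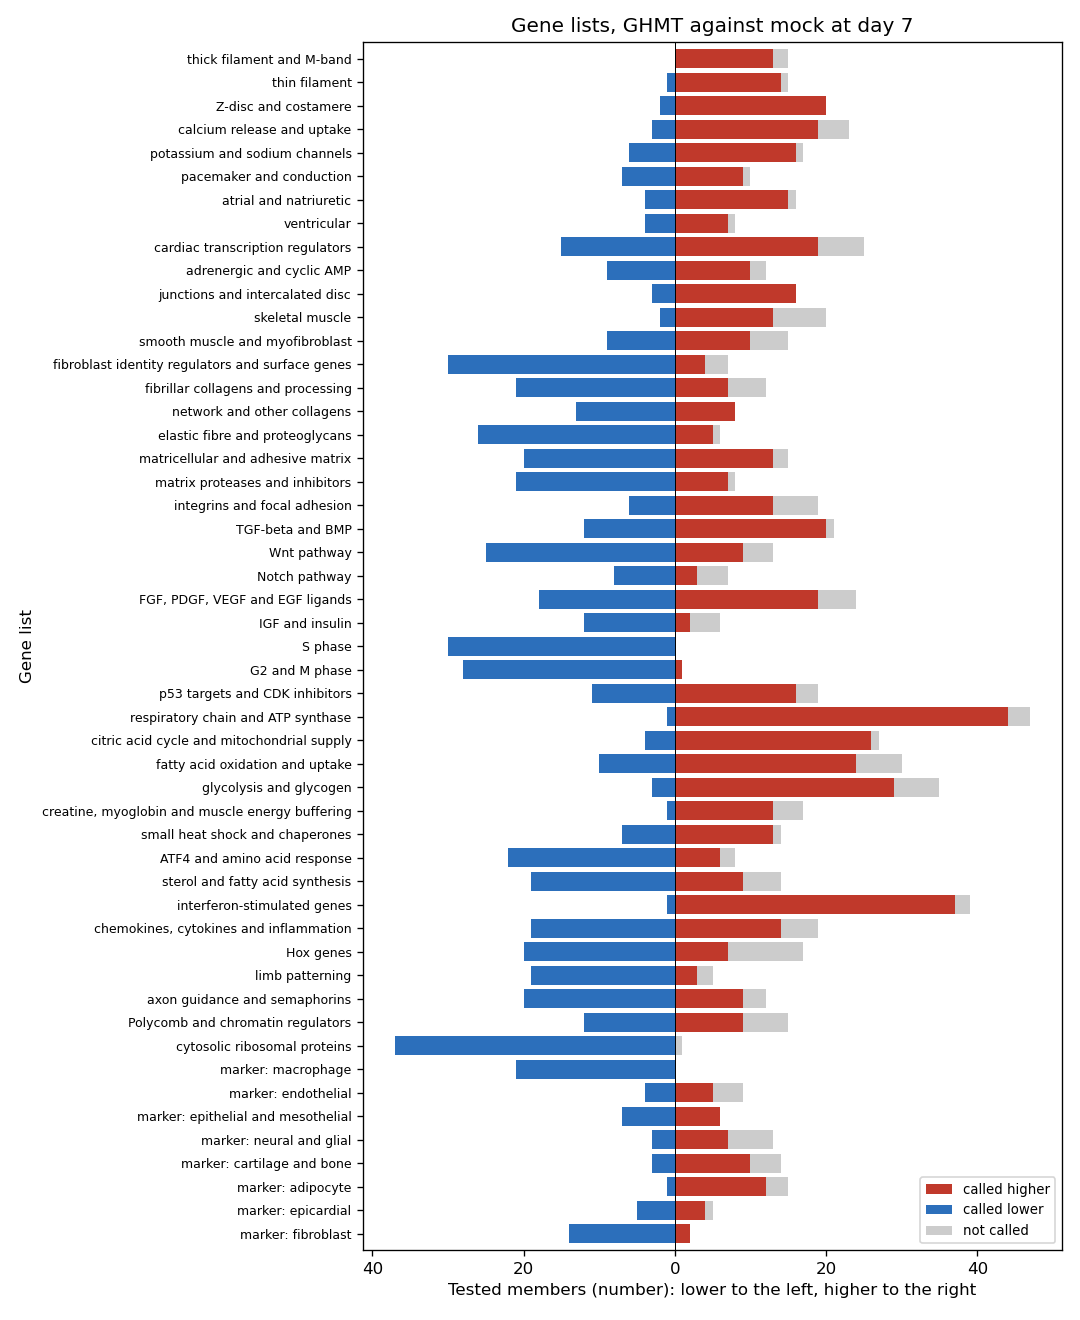
Number of tested members of each gene list called higher (right) or lower (left) in GHMT than in mock at day 7 by edgeR, with the members not called in grey beyond the higher ones. Sarcomere, energy and interferon lists lie mostly on the higher side, and matrix, cell cycle, ribosomal and macrophage lists on the lower side.

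Signalling genes moved in both directions, as did all genes tested, of which 36.3% were called higher and 35.6% lower. Of TGF-beta and BMP genes, 20 of 33 tested members were called higher, 12 lower and 1 was not called. The ligands Tgfb2 (log2 2.17 ± 0.05), Tgfb3 (log2 1.62 ± 0.06) and Bmp2 (log2 3.14 ± 0.08) rose and Bmp4 fell (log2 -2.52 ± 0.12), and the BMP target genes Id1 (log2 -1.63 ± 0.10), Id2 (log2 -1.75 ± 0.08) and Id3 (log2 -1.55 ± 0.09) fell. Of the Wnt list, 9 of 38 tested members were called higher, 25 lower and 4 were not called. Lgr5, a receptor for R-spondins, stood at 6.33, 6.85 and 7.45 CPM in GHMT and 542, 508 and 589 CPM in mock (log2 -6.31 ± 0.15, edgeR, adjusted p = 5.81e-22). The secreted antagonists parted: Wif1 stood at 93.7, 99.5 and 94.7 CPM in GHMT and 1.0, 0.844 and 0.602 CPM in mock (log2 6.86 ± 0.11, edgeR, adjusted p = 2.29e-25), whereas Sfrp2 fell to 1.39 ± 0.117 against 90.8 ± 6.45 CPM (log2 -6.02 ± 0.13) and Sfrp1 to 48.3 ± 5.74 against 475 ± 8.84 CPM (log2 -3.30 ± 0.12). Of Notch genes, 3 of 15 tested members were called higher, 8 lower and 4 were not called, with Hey1 at 0.899 ± 0.197 against 3.96 ± 0.427 CPM (log2 -2.13 ± 0.14). Of FGF, PDGF, VEGF and EGF family genes, 19 of 42 tested members were called higher, 18 lower and 5 were not called. Hbegf, a ligand of the EGF receptor, rose, at 250.4, 268 and 254 CPM in GHMT and 18.5, 19.3 and 17.2 CPM in mock (log2 3.81 ± 0.09, edgeR, adjusted p = 3.59e-22), and the ERK phosphatase genes Dusp4 (log2 2.52 ± 0.06) and Dusp6 (log2 1.72 ± 0.05) rose, while Figf, which encodes a lymphatic growth factor, fell to 14.9 ± 0.491 against 184 ± 7.06 CPM (log2 -3.62 ± 0.07).

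Insulin-like growth factors drive growth of fetal tissue. Of that list, 2 of 18 tested members were called higher, 12 lower and 4 were not called. Igf1 stood at 12, 12.7 and 12.9 CPM in GHMT and 395, 365 and 409.9 CPM in mock (log2 -4.96 ± 0.09, edgeR, adjusted p = 1.32e-24) and Igfbp3, its carrier, at 26.3, 24.9 and 26 CPM in GHMT and 1608, 1419 and 1484 CPM in mock (log2 -5.87 ± 0.12, edgeR, adjusted p = 2.34e-23). Igf2 fell from 2308 ± 241 CPM to 757 ± 56.5 CPM (log2 -1.61 ± 0.07), and H19, the imprinted RNA beside it, from 3259 ± 213 CPM to 912 ± 57.5 CPM (log2 -1.84 ± 0.09). Igf2r, the receptor that clears Igf2, rose to 2862 ± 332 against 911 ± 6.42 CPM (log2 1.65 ± 0.11).

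Proliferation genes were lower in GHMT. All 30 S phase genes tested fell, by a median log2 of -0.88, and 28 of 29 G2 and M phase genes fell, by a median of -1.72. Mki67, the proliferation antigen, stood at 40.4, 29.4 and 42.9 CPM in GHMT and 166, 170.0 and 174 CPM in mock (log2 -2.18 ± 0.15, edgeR, adjusted p = 1.55e-12) and Top2a at 42.8, 33.7 and 43.7 CPM in GHMT and 149, 151 and 149 CPM in mock (log2 -1.90 ± 0.10, edgeR, adjusted p = 2.95e-15). Prim1, a subunit of primase, fell most in the S phase list (log2 -1.80 ± 0.09). Cenpa, the centromeric histone, rose against the list, at 120.4, 133 and 124 CPM in GHMT and 24.4, 24.8 and 24.4 CPM in mock (log2 2.36 ± 0.06, edgeR, adjusted p = 4.51e-22). Of p53 targets and CDK inhibitors, 16 of 30 tested members were called higher, 11 lower and 3 were not called. Cdkn1a rose from 517 ± 15.9 CPM to 1099 ± 49.7 CPM (log2 1.09 ± 0.05) and Ccng1 to 2115 ± 33.5 against 910.0 ± 59.3 CPM (log2 1.22 ± 0.04), while Cdkn1b (log2 -1.24 ± 0.04) and Cdkn1c (log2 -1.95 ± 0.09) fell.

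Ribosomal, amino acid and lipid genes of biosynthesis were read from 3 lists. Of cytosolic ribosomal protein genes, 0 of 38 tested members were called higher, 37 lower and 1 was not called, with a median of -0.53 and none called lower by more than 2-fold, although processed copies make single members uncertain. Rps20 fell most (log2 -1.03 ± 0.09). Of ATF4 and amino acid response genes, 6 of 30 tested members were called higher, 22 lower and 2 were not called, among them Atf4 itself (log2 -0.69 ± 0.06), Phgdh of serine synthesis (log2 -1.81 ± 0.08) and the kinase-like Trib3 (log2 -3.62 ± 0.08). The culture media of the transduced cells held added amino acids, and whether mock shared them is not stated. Of sterol and fatty acid synthesis genes, 9 of 33 tested members were called higher, 19 lower and 5 were not called, with Hmgcs1 at 149.8 ± 2.47 against 259 ± 13.1 CPM (log2 -0.79 ± 0.05) and, rising, Scd1 at 711 ± 56.3 against 170.5 ± 6.42 CPM (log2 2.06 ± 0.06).

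Interferon-stimulated genes were higher in GHMT. Of that list, 37 of 40 tested members were called higher, 1 lower and 2 were not called, with a median of 1.61. Oas3, an antiviral synthetase, stood at 76.4, 71.2 and 71 CPM in GHMT and 0.887, 0.422 and 2.25 CPM in mock (log2 5.96 ± 0.24, edgeR, adjusted p = 3.14e-17), Isg15 at 254, 246 and 206 CPM in GHMT and 33.6, 20.8 and 65.2 CPM in mock (log2 2.56 ± 0.26, edgeR, adjusted p = 3.55e-09) and Ifit1 at 212, 193 and 173 CPM in GHMT and 28.1, 14.9 and 64.6 CPM in mock (log2 2.43 ± 0.30, edgeR, adjusted p = 8.22e-08). Mock replicate 3 was the highest mock library for each of them and still lay below every GHMT library. Irf1 fell, to 13.7 ± 0.568 against 23.2 ± 2.45 CPM (log2 -0.76 ± 0.09). Summed over the list, levels were 4275, 4784 and 4212 CPM in GHMT and 1799.7, 1546 and 2230.2 CPM in mock. At day 2 the sums were higher in both groups, at 10336, 9375 and 11064 CPM and 5655, 7618 and 6251 CPM. The log2 fold change over mock was nonetheless mostly larger at day 7. The day difference was called positive for 33 of 40 members and negative for 2, with a median of 1.26. The part of the viral vectors in the higher levels of GHMT was not tested. Of chemokines, cytokines and inflammatory genes, 14 of 38 tested members were called higher, 19 lower and 5 were not called. Il6 rose, at 9.33, 10.3 and 11.1 CPM in GHMT and 0.561, 0.513 and 0.539 CPM in mock (log2 4.24 ± 0.21, edgeR, adjusted p = 1.82e-15), and so did Ccl2 (log2 1.72 ± 0.11) and Ccl7 (log2 1.83 ± 0.13), while C3, a complement protein, fell, at 3.45, 3.34 and 4.13 CPM in GHMT and 79.3, 73.9 and 72.3 CPM in mock (log2 -4.37 ± 0.10, edgeR, adjusted p = 1.54e-22), with Cxcl12 (log2 -1.69 ± 0.07) and Cxcl5 (log2 -4.83 ± 0.16).

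Markers of other cells that such cultures can hold were read from lists. All 21 macrophage markers tested fell, with a median of -3.05. Lyz2, lysozyme, stood at 23.6, 21.9 and 21.1 CPM in GHMT and 271, 187 and 258 CPM in mock (log2 -3.42 ± 0.14, edgeR, adjusted p = 4.83e-17), and Mrc1, the mannose receptor, at 1.34, 1.71 and 1.64 CPM in GHMT and 52.1, 39 and 59.1 CPM in mock. Summed, the macrophage markers stood at 80.9, 83.9 and 78.3 CPM in GHMT, 717, 491 and 708 CPM in mock at day 7 and 80.5, 83.5 and 82.6 CPM in mock at day 2. In GHMT at day 2 the sum was 59.8, 51.2 and 56.1 CPM, so the 3 libraries of day 7 lay above those of day 2 in both groups. The part of macrophages in the lower levels of C3, Cxcl5 and other inflammatory genes was not tested. Of endothelial markers, 5 of 13 tested members were called higher, 4 lower and 4 were not called, with Pecam1, a defining one, not called at 0.235 ± 0.039 against 0.174 ± 0.0816 CPM and Prox1 higher at 10.9 ± 1.06 against 1.15 ± 0.0769 CPM (log2 3.24 ± 0.14). By more than 2-fold, 1 endothelial marker was called higher and 3 lower, the lowest at log2 -5.09, and the list median was -0.127. Summed, the endothelial markers ran from 315 to 330.0 CPM in GHMT and from 194 to 199 CPM in mock. Of epithelial and mesothelial markers, 6 of 13 tested members were called higher, 7 lower and 0 were not called. Msln, mesothelin, stood at 560.2, 600.2 and 551 CPM in GHMT and 65.4, 70.7 and 59.2 CPM in mock (log2 3.13 ± 0.07, edgeR, adjusted p = 2.39e-22), although Upk3b, another mesothelial gene, fell (log2 -1.45 ± 0.07), and Epcam and Cdh1 were too low to test, at 0.0693 ± 0.0368 against 0.0509 ± 0.0181 CPM and 0.121 ± 0.0658 against 0.224 ± 0.0471 CPM.

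Of neural and glial markers, 7 of 16 tested members were called higher, 3 lower and 6 were not called. Tubb3 rose to 212 ± 5.0 against 33.7 ± 0.576 CPM (log2 2.66 ± 0.07) and Map2 fell to 3.92 ± 0.599 against 68.1 ± 3.74 CPM (log2 -4.12 ± 0.13). Of cartilage and bone markers, 10 of 17 tested members were called higher, 3 lower and 4 were not called. Alpl, alkaline phosphatase, stood at 33.7, 29.5 and 32.1 CPM in GHMT and 0.561, 0.483 and 0.444 CPM in mock (log2 5.99 ± 0.11, edgeR, adjusted p = 2.31e-24), and Sox9, the cartilage regulator, was not called at 22.5 ± 0.953 against 20.4 ± 1.75 CPM. Of adipocyte markers, 12 of 16 tested members were called higher, 1 lower and 3 were not called, with Pparg at 10.7 ± 0.121 against 3.85 ± 0.129 CPM (log2 1.47 ± 0.10) and Adipoq at 4.38 ± 0.383 against 1.95 ± 0.122 CPM (log2 1.16 ± 0.15). Of epicardial markers, 4 of 10 tested members were called higher, 5 lower and 1 was not called, with Tbx18 at 49.1 ± 0.704 against 14.4 ± 0.352 CPM (log2 1.77 ± 0.05) and Wt1 at 4.79 ± 0.169 against 8.96 ± 0.11 CPM (log2 -0.90 ± 0.09).

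Positional genes of the embryo fell more often than they rose. Of Hox genes, which mark position along the body and limb, 7 of 37 tested members were called higher, 20 lower and 10 were not called. Hoxd13, of the distal limb, stood at 6.39, 6.34 and 5.77 CPM in GHMT and 35.9, 39.2 and 34 CPM in mock (log2 -2.56 ± 0.08, edgeR, adjusted p = 5.63e-20), and Hoxc13 rose to 8.39 ± 0.408 against 2.96 ± 0.473 CPM (log2 1.51 ± 0.10). Of limb patterning genes, 3 of 24 tested members were called higher, 19 lower and 2 were not called, among them Lhx9 (log2 -3.39 ± 0.10) and Tbx4 (log2 -1.29 ± 0.10). Of axon guidance genes, 9 of 32 tested members were called higher, 20 lower and 3 were not called. Robo2, a Slit receptor, fell to 2.38 ± 0.446 against 87.5 ± 2.45 CPM (log2 -5.21 ± 0.10) and its ligand gene Slit2 to 91.1 ± 3.1 against 821 ± 12.3 CPM (log2 -3.17 ± 0.08), while Sema3e rose to 121 ± 2.05 against 13.2 ± 0.418 CPM (log2 3.20 ± 0.06). Of Polycomb and other chromatin regulators, 9 of 27 tested members were called higher, 12 lower and 6 were not called. Ezh2, the methyltransferase of dividing cells, fell to 12.4 ± 0.691 against 27.5 ± 1.25 CPM (log2 -1.14 ± 0.07) and Ezh1 rose to 37.1 ± 0.405 against 24.5 ± 0.827 CPM (log2 0.60 ± 0.05), and Smarcd3, the cardiac subunit of the BAF remodelling complex, rose to 37.5 ± 0.703 against 11.7 ± 0.809 CPM (log2 1.67 ± 0.05).

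Some of the strongest rises were outside the lists. Of tested genes, 155 had 0 counts in every mock library, and 133 of these were called higher. A gene at 0 in mock was tested only through counts in other groups, so the filter partly sets this share. Mcpt4 and Mcpt2, mast cell proteases of one gene cluster, were among them, at 66, 69.7 and 62.2 CPM in GHMT and 0, 0 and 0 CPM in mock and 15.8, 18.8 and 20 CPM in GHMT and 0, 0 and 0 CPM in mock. Mcpt4 was at least 722-fold higher (edgeR, adjusted p = 4.76e-21) and Mcpt2 at least 199-fold higher (edgeR, adjusted p = 1.00e-15). Other mast cell genes were looked up after these values had been seen. Fcer1a was at 0 counts in all 6 libraries, Cpa3 was too low to test with no library above 0.0887 CPM, and Kit (log2 -1.01 ± 0.26), Gata2 (log2 -1.43 ± 0.15) and Ms4a2 (log2 -2.74 ± 0.33) fell. The proteases Cma1 (log2 2.73 ± 0.44) and Mcpt8 (log2 1.26 ± 0.25) rose, to 0.682 ± 0.26 against 0.101 ± 0.0149 CPM and 2.31 ± 0.646 against 0.952 ± 0.0833 CPM. Mcpt1, not tested, was counted in the GHMT libraries and at 0 in mock, Hdc was not called at 0.326 ± 0.0922 against 0.194 ± 0.0692 CPM, and Tpsb2 and Tpsab1 were too low to test. Cbln4, a synaptic organiser, at 31.5, 30.3 and 29.1 CPM in GHMT and 0, 0 and 0 CPM in mock, was at least 332-fold higher (edgeR, adjusted p = 1.35e-20). Mal, a membrane proteolipid, stood at 292, 293 and 297 CPM in GHMT and 0.0591, 0.121 and 0.0317 CPM in mock (log2 11.94 ± 0.17, edgeR, adjusted p = 3.24e-26). Hrh3, a histamine receptor, had 6804 counts over the GHMT libraries and 2 over the mock libraries, a ratio of 3256 (exact 95% counting interval 901 to 26892). Tcp11x2, one of a family of similar X-linked genes and so uncertain, had 7101 counts over the GHMT libraries and 3 over the mock libraries, a ratio of 2265 (exact 95% counting interval 775 to 10988). Gpx3, a secreted glutathione peroxidase, stood at 3292, 3463 and 3216 CPM in GHMT and 255, 234 and 239 CPM in mock (log2 3.78 ± 0.05, edgeR, adjusted p = 8.44e-27).

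Some of the deepest falls were outside the matrix lists. Agtr2, an angiotensin receptor of fetal mesenchyme, stood at 0.616, 0.218 and 0.295 CPM in GHMT and 578, 511 and 581 CPM in mock (log2 -10.51 ± 0.26, edgeR, adjusted p = 8.95e-22). Egfl6, a secreted EGF-like protein, stood at 0.14, 0.0816 and 0.197 CPM in GHMT and 272, 253 and 279 CPM in mock (log2 -10.91 ± 0.19, edgeR, adjusted p = 1.93e-24), and Dlk1, an imprinted inhibitor of adipogenesis, at 5.35, 4.35 and 4.66 CPM in GHMT and 835, 678 and 639 CPM in mock (log2 -7.23 ± 0.12, edgeR, adjusted p = 4.70e-25). Ldb2, a LIM domain binding protein, stood at 0.28, 0.381 and 0.295 CPM in GHMT and 57.9, 54.7 and 57.3 CPM in mock (log2 -7.45 ± 0.17, edgeR, adjusted p = 1.57e-22). Of tested genes, 9 had 0 counts in every GHMT library, and 5 of them were called lower. Like the genes at 0 in mock, these passed the filter only through counts in other groups.

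GHMT was set against GMT, the cocktail without Hand2, at day 7. Besides Hand2 (8.24 ± 0.07 on the log2 scale), the other factors were slightly higher in GHMT, Gata4 by log2 0.16 ± 0.05, Mef2c by 0.26 ± 0.05 and Tbx5 by 0.24 ± 0.05, each called by edgeR. The call of Gata4 was lost without GHMT day 7 replicate 2 (log2 0.10, edgeR, adjusted p = 0.104). It was also lost with library totals in place of TMM (log2 0.117, edgeR, adjusted p = 0.0575). The part of these in the differences below was not tested. Of genes tested, 3290 were higher in GHMT (18.7%) and 3308 lower (18.8%), by edgeR. Hcn4 stood at 414 ± 54.7 CPM in GHMT against 10.5 ± 0.522 CPM in GMT (log2 5.30 ± 0.16, edgeR, adjusted p = 4.69e-19), and Casq2 at 2329.6 ± 97.9 CPM in GHMT against 204 ± 7.79 CPM in GMT (log2 3.51 ± 0.05, edgeR, adjusted p = 3.47e-25). Trim55, a muscle ubiquitin ligase, stood at 82.3 ± 5.9 CPM in GHMT against 0.458 ± 0.152 CPM in GMT (log2 7.49 ± 0.12, edgeR, adjusted p = 2.35e-24), and Mal at 294 ± 3.08 CPM in GHMT against 13.6 ± 1.7 CPM in GMT (log2 4.44 ± 0.09, edgeR, adjusted p = 2.26e-22). Aldh3a1, an aldehyde dehydrogenase, reached 50.5 ± 4.41 CPM in GHMT against 0.342 ± 0.094 CPM in GMT (log2 7.20 ± 0.15, edgeR, adjusted p = 3.62e-22), and Agt, angiotensinogen, 205 ± 6.36 CPM in GHMT against 1.93 ± 0.266 CPM in GMT (log2 6.73 ± 0.11, edgeR, adjusted p = 1.12e-23). The signalling adaptor Sla, the sodium pump regulator Fxyd6, the tetraspanin Tspan18 and the Wnt antagonist Sfrp5 were also among the largest, at log2 6.01 ± 0.08, 7.15 ± 0.10, 6.08 ± 0.16 and 6.50 ± 0.16.

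The lists differed in how their members divided between the cocktails. Over all genes tested, 18.7% were higher in GHMT than in GMT and 18.8% lower. In the thick filament list, 3 of 15 tested members were higher, near the share over all genes, and 6 were lower than under GMT. Myh6 stood at log2 1.81 ± 0.08 and Myl7 at log2 -0.76 ± 0.08. In the smooth muscle and myofibroblast list, 20 of 24 tested members were higher, among them Myh11 at log2 2.23 ± 0.08, and 1 was lower. In the respiratory chain list, 0 of 48 tested members were higher and 26 lower, with a median of -0.19. Of sterol and fatty acid synthesis genes, 6 of 33 tested members were higher and 22 lower, with a median of -0.26. Some matrix genes below mock in GHMT were lower still in GMT. Dcn, decorin, stood at 151 ± 8.17 CPM in GHMT against 30.3 ± 3.75 CPM in GMT (log2 2.31 ± 0.09, edgeR, adjusted p = 1.76e-16) and Lum at 35.8 ± 1.85 CPM in GHMT against 3.75 ± 0.558 CPM in GMT (log2 3.25 ± 0.15, edgeR, adjusted p = 2.61e-15).

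Igf2 stood at 757 ± 56.5 CPM in GHMT against 59.6 ± 1.84 CPM in GMT (log2 3.67 ± 0.08, edgeR, adjusted p = 4.21e-22), H19 at 912 ± 57.5 CPM in GHMT against 34.7 ± 6.38 CPM in GMT (log2 4.71 ± 0.11, edgeR, adjusted p = 2.22e-21) and Cdkn1c, an imprinted CDK inhibitor, at 66.3 ± 4.1 CPM in GHMT against 2.56 ± 0.243 CPM in GMT (log2 4.69 ± 0.13, edgeR, adjusted p = 7.86e-20), all above GMT and, as given above, below mock. In the other direction, Asic4, an acid-sensing channel subunit, stood at 0.397 ± 0.0459 CPM in GHMT against 11.3 ± 0.715 CPM in GMT (log2 -4.81 ± 0.20, edgeR, adjusted p = 2.77e-16), Nt5e, which makes adenosine, at 39.7 ± 2.76 CPM in GHMT against 494 ± 14.7 CPM in GMT (log2 -3.64 ± 0.05, edgeR, adjusted p = 3.47e-25), and Ptgfr, a prostaglandin receptor, at 6.26 ± 0.0369 CPM in GHMT against 73.4 ± 4.78 CPM in GMT (log2 -3.55 ± 0.10, edgeR, adjusted p = 1.43e-19). The synaptic gene Syt1 (-4.05 ± 0.15), the histidine-degrading Hal (-3.97 ± 0.16), Fgf23 (-3.95 ± 0.23), Bex1 (-3.49 ± 0.10) and Lair1 (-3.34 ± 0.15) were the other named genes far below GMT on the log2 scale.

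**Figure D4:**
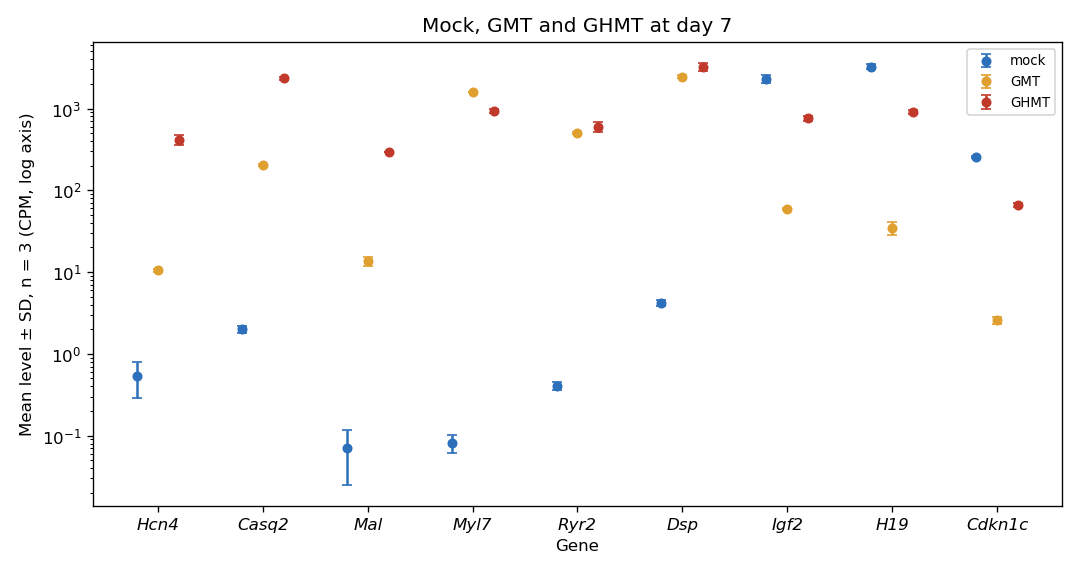
Mean level in CPM on a log axis, with bars of 1 SD over 3 libraries, of 9 genes in mock, GMT and GHMT at day 7. Hcn4, Casq2 and Mal are far higher in GHMT than in GMT, Myl7 is lower in GHMT than in GMT, and Igf2, H19 and Cdkn1c are lowest in GMT.

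The change from day 2 to day 7 was read as the difference of the 2 GHMT effects, each against the mock of its day. This signed log2 difference, day 7 minus day 2, was called positive for 4095 genes (23.3%) and negative for 4572 (26%), by edgeR. Thick filament genes summed to 2299, 2319 and 2234 CPM in GHMT at day 2 and 6141, 5901 and 5849 CPM at day 7, and thin filament genes to 13299, 13178 and 13615 CPM and 18577, 19428 and 17866 CPM. In mock the thin filament genes summed to 4433, 4059 and 4065 CPM at day 2 and 2955, 3048 and 2912 CPM at day 7, so the mock level differed between the days too. The signed difference was called positive for 8 of 15 thick and 11 of 16 thin filament genes tested, and negative for 1 of each. Tnnt2 stood at 6392 ± 144 CPM in GHMT against 7.53 ± 0.469 CPM in mock at day 2, a log2 fold change of 9.73 ± 0.11, and Ryr2 at 439.9 ± 52.8 CPM in GHMT against 0.61 ± 0.184 CPM in mock, a log2 fold change of 9.48 ± 0.24. At day 7 the log2 fold change over mock was smaller for Tnnt2, at 9.08, and larger for Ryr2, at 10.52. Cbln4 was at 1.5 ± 0.224 CPM in GHMT at day 2 and 30.3 ± 1.2 CPM at day 7 (edgeR, adjusted p = 0.00248). Mybphl went from 0.995 ± 0.0841 CPM to 9.96 ± 0.707 CPM (edgeR, adjusted p = 7.37e-05), Trim54 from 0.995 ± 0.335 CPM to 13.6 ± 0.804 CPM (edgeR, adjusted p = 0.00468) and Padi3, an arginine deiminase, from 0.409 ± 0.137 CPM to 12.5 ± 1.62 CPM (edgeR, adjusted p = 1.39e-04). Mock counts of these 4 genes at day 7 were at or near 0, so no fold is given for the difference. Without mock day 2 replicate 1, neither Cbln4 nor Trim54 had a called day difference (edgeR, adjusted p = 1 for both).

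For some genes with a negative difference the level differed between the days in both cultures. Eln stood at 37.9 ± 6.88 CPM at day 2 and 1688 ± 320.0 CPM at day 7 in mock, and 80.8 ± 4.79 CPM at day 2 and 9.85 ± 1.9 CPM at day 7 in GHMT (log2 -8.52 ± 0.27, edgeR, adjusted p = 2.74e-18). Dlk1 stood at 35.5 ± 3.59 CPM at day 2 and 717 ± 104 CPM at day 7 in mock, and 37.2 ± 0.586 CPM at day 2 and 4.79 ± 0.513 CPM at day 7 in GHMT (log2 -7.29 ± 0.15, edgeR, adjusted p = 6.17e-21), and Egfl6 at 13.4 ± 3.4 CPM at day 2 and 268 ± 13.5 CPM at day 7 in mock, and 1.07 ± 0.0647 CPM at day 2 and 0.139 ± 0.0576 CPM at day 7 in GHMT (log2 -7.27 ± 0.46, edgeR, adjusted p = 1.74e-12). In each the mean was higher at day 7 than at day 2 in mock and lower in GHMT. The same held for Igf2, at 1209 ± 120.1 CPM at day 2 and 2308 ± 241 CPM at day 7 in mock, and 5099.6 ± 283 CPM at day 2 and 757 ± 56.5 CPM at day 7 in GHMT (log2 -3.68 ± 0.10, edgeR, adjusted p = 1.62e-19), and H19, at 1349.6 ± 162 CPM at day 2 and 3259 ± 213 CPM at day 7 in mock, and 10813 ± 224 CPM at day 2 and 912 ± 57.5 CPM at day 7 in GHMT (log2 -4.84 ± 0.13, edgeR, adjusted p = 2.31e-19), which GHMT held above mock at day 2 and below it at day 7. Such a turn, called in opposite directions at the 2 days with the day difference called as well, was seen for 622 genes from higher to lower and 582 from lower to higher. Myostatin, Mstn, an inhibitor of muscle growth, stood at 0.0468 ± 0.0298 CPM at day 2 and 3.08 ± 0.289 CPM at day 7 in mock, and 14.8 ± 0.915 CPM at day 2 and 7.8 ± 0.133 CPM at day 7 in GHMT (log2 -6.83 ± 0.26, edgeR, adjusted p = 1.15e-16), so its rise over mock was smaller at day 7.

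**Figure D5:**
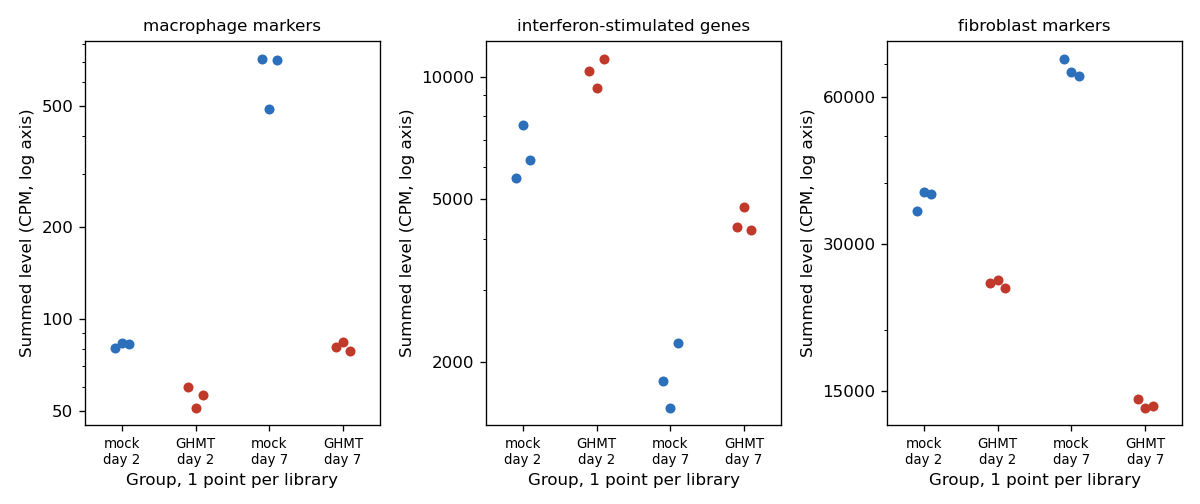
Summed CPM of 3 marker lists in each library of mock and GHMT at day 2 and day 7, on a log axis. Macrophage markers are highest in the 3 mock libraries of day 7, interferon-stimulated genes are lower at day 7 than at day 2 in both groups, and fibroblast markers are higher at day 7 than at day 2 in mock and lower in GHMT.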

How the data were processed

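RNA-seq of bulk MEFs gave 1 deposited table of raw read counts per gene for 24 libraries, 3 in each of 8 groups. Reads were trimmed, aligned and counted with tools that include Trim Galore 0.4.1, HISAT2 2.0.1 and featureCounts 1.4.6, on GRCm38 (mm10), per the submitters' processing notes, which also name DESeq2 1.6.3. The gene annotation, the strand setting and the handling of multiply mapped reads were not given in the sources used here. Overlapping, antisense and near-identical genes are therefore uncertain.

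From the deposited counts, edgeR 4.0.16 (R 4.3.3) fitted 1 mean per group to all 24 libraries after filterByExpr and TMM scaling, with 16 residual degrees of freedom. Contrasts were tested two-sided with the quasi-likelihood test, or with glmTreat against 2-fold, and p-values were adjusted by Benjamini-Hochberg over 17576 genes. The biological coefficient of variation was 5.55%. CPM values use TMM-scaled library sizes. Total counts were 29345957 to 37495178 per library. A gene at 0 counts in one group is given as a lower bound against a floor of 3 counts per library, and a gene with 1 to 3 counts in one group as a ratio with an exact 95% interval, both covering counting error only. On simulated counts with known changes for GHMT against mock (15890 genes), the test called 32.7% of genes changed 1.2-fold and 76% of those changed 1.5-fold. It called 83.7% of genes with a 2-fold change and 100% of genes with a 4-fold change. Among 15694 genes simulated without a change, it called 12. The simulation fitted only the 6 compared libraries and changed few genes, with 48 to 50 tested per fold. The reported fit used 24 libraries and called 72% of genes, so these rates need not hold for it.

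The groups come from the labels. The gene lists, the comparisons and the genes to name were chosen with earlier results of these data known, and lists were given counts and medians but no test. Named were the cocktail genes, the genes with the highest and lowest fold among called genes of at least 5 CPM whose libraries did not overlap, genes at 0 in mock, and members of each list. Of 1310 genes on the lists, 1308 matched the table by symbol or RefSeq synonym. Alternatives were DESeq2 1.42.0, other scalings and filters, only the compared libraries, a replicate block and leaving out each library. AGHMT libraries and GMT at day 2 entered the fit but are not described here.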

Additional observations from a re-analysis of the deposited data

Results flagged for a closer look

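Effects that differed between the days were marked for a closer look, since GHMT against mock was tested at day 7 and at day 2 and the difference itself was tested with edgeR. The signed log2 difference, day 7 minus day 2, was above 0 for 4095 called genes and below 0 for 4572, which include genes that fell further at day 7. Among genes whose values the report gives, this difference was -8.52 for Eln, -7.29 for Dlk1, -7.27 for Egfl6 and -6.83 for Mstn, which was above mock on both days. For H19 it was -4.84 and for Igf2 -3.68, both above mock at day 2 and below it at day 7. The mean of Eln turned likewise, from 80.8 CPM in GHMT against 37.9 CPM in mock at day 2 to 9.85 against 1688 CPM at day 7. In mock alone the log2 fold change from day 2 to day 7 was 5.47 ± 0.19 for Eln, 4.33 ± 0.10 for Dlk1, 4.32 ± 0.11 for Egfl6, 5.91 ± 0.25 for Mstn, 1.27 ± 0.09 for H19 and 0.93 ± 0.07 for Igf2, each called by edgeR.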

How the results depend on the processing

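The counts of called genes over all genes tested stayed within 1.5 times their values under all alternatives run. Of the list counts, 4 moved further: calcium genes called lower from 3 to 5 with the replicate block, respiratory chain genes called lower from 1 to 0 with at least 1 CPM in 3 libraries, and, without GHMT day 7 replicate 1, thick filament genes called lower from 0 to 1 and thin filament genes called lower from 1 to 0. Leaving out 1 library at a time gave 6150 to 6291 genes called higher, 6011 to 6133 lower, 2066 to 2132 higher and 1789 to 1874 lower by more than 2-fold, 5790 to 6231 for GHMT against GMT and 8128 to 8433 for the day difference. DESeq2 gave 6437, 5980, 1822, 1522, 6401 and 8456 in the same order. The labels do not say whether the replicate numbers pair the libraries, and the main fit held no block. Deviations of same-numbered GHMT and mock libraries at day 7 correlated across genes at -0.0297, -0.00394 and 0.0278. With 3 libraries per group, these values cannot show whether libraries were paired. With the replicate number as a block the counts were 6426, 6289, 2143, 1871, 6757 and 8778. Other scalings moved the median log2 fold change to at most 0.0323.

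Of 292 results for single genes, 279 kept direction and call under every alternative run for them. The sign turned only for genes that were not called. Their log2 fold changes were 0.00113 for Akt1 with RLE size factors, 0.0169 for Akt1 with library totals alone, 0.0104 for Tpm2 with library totals alone, 0.00389 for Akt1 with only the compared libraries, 0.00102 for Akt1 with DESeq2. Leaving out 1 library at a time gave -0.0481 to 0.0505 for Acta2, -0.059 to 0.213 for Adrb1, -0.0655 to 0.0131 for Akt1, -0.371 to 1.16 for Myl3, -1.05 to 0.127 for Myog, -0.021 to 0.111 for Tead1, -0.0869 to 0.0164 for Tpm2. A call changed for Acta1, Zeb1, Myh7b, Cbln4, Trim54 and, against GMT, Gata4. That of Myh7b appeared without GHMT day 7 replicate 1 (edgeR, adjusted p = 0.0443). The causes were not tested. Depth limits genes below about 0.1 CPM, where 3 counts per library is the floor.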

Other observations

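Other genes at the extremes of GHMT against mock belonged to no list of the report. Among those lower in GHMT, Kera, keratocan, a proteoglycan best known from the cornea, had 1 counts over the GHMT libraries and 819 over the mock libraries, a ratio of mock to GHMT of 856 (exact 95% counting interval 153 to 33840). Reg1, a secreted lectin, had 2 counts over the GHMT libraries and 1581 over the mock libraries, a ratio of mock to GHMT of 826 (exact 95% counting interval 228 to 6826). Hmcn1, a giant extracellular immunoglobulin-domain protein, stood at 3.05, 1.74 and 2.0 CPM in GHMT and 275, 261 and 269.8 CPM in mock (log2 -6.88 ± 0.23, edgeR, adjusted p = 5.12e-19), and Cdh8, a classical cadherin, at 0.168, 0.0544 and 0.0656 CPM in GHMT and 11.4, 11.8 and 12 CPM in mock (log2 -6.86 ± 0.24, edgeR, adjusted p = 1.11e-18). Olfml1, a secreted olfactomedin-like protein, stood at 0.056, 0.0544 and 0 CPM in GHMT and 16.1, 14.6 and 13 CPM in mock (log2 -8.42 ± 0.29, edgeR, adjusted p = 1.03e-18).

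Among genes at 0 counts in every mock library, Crh, corticotropin-releasing hormone, stood at 4.62, 5.46 and 4.66 CPM in GHMT and 0, 0 and 0 CPM in mock and was at least 53.8-fold higher (edgeR, adjusted p = 2.35e-14). Pla2g4d, a cytosolic phospholipase, stood at 5.13, 4.46 and 3.44 CPM in GHMT and 0, 0 and 0 CPM in mock and was at least 47.5-fold higher (edgeR, adjusted p = 1.21e-14). Serpina3b, one of a cluster of near-identical serpins whose reads the counting could split, had 3036 counts over the GHMT libraries and 1 over the mock libraries, a ratio of 2906 (exact 95% counting interval 521 to 114808).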
